A study of Mus musculus with 12 samples.

Results

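Tumor granule neuron progenitors (tumor GNPs), the dividing cells of medulloblastoma, were set against normal astrocytes of the mouse cerebellum. The 8 libraries compared were chosen by their cell type label, 4 for each cell type, out of 12 in the series. All 12 were RNA-seq libraries of cells that, per the labels, were taken by laser capture, a method that cuts single cells out of a thin section under a microscope. The other 4 libraries were tumor-derived astrocytes, which the study's design sets against both of these groups. They entered the models below to help estimate the spread between libraries. They thereby also bore on which genes were tested and on the scaling.

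Granule neuron progenitors are the precursors of cerebellar granule neurons. They divide in response to Sonic hedgehog, a secreted protein that lifts the block that the receptor Patched puts on Smoothened, so that Gli transcription factors act on genes such as the D cyclins. Continued Hedgehog signalling in these cells gives rise to 1 form of medulloblastoma. Astrocytes are glia that clear glutamate, buffer potassium and supply lipids and lactate to neurons. In the cerebellum they lie among Purkinje cells, the large inhibitory output neurons, and among mature granule neurons.

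The tumor GNPs carried no treatment, genotype, age or sex in the labels, and their strain was given as C57BL/7, C57BL/8, C57BL/9 and C57BL/10, rising by 1 from sample to sample. The normal astrocytes were labelled C57BL/6, likewise with no genotype, age or sex, and a sample sheet deposited with the counts describes them, at its first such entry, as adult cells of the cerebellum. That sheet calls the first tumor GNP sample cultured, and the title of every tumor GNP sample ends in "_cul". The labels give laser capture for each, so whether the tumor GNPs had been in culture is unsettled. Any difference in labelled strain, age or culture runs with cell type and cannot be told apart from it. Sex-linked transcripts, given below, also differed between libraries. No label says which animal a library came from. If several came from 1 animal, the p-values below are too small, and they measure only the spread between these libraries, which may be technical.

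Total counts were 8154401 to 8673023 in tumor GNPs and 8838441 to 11287457 in normal astrocytes, with 16633 to 17938 and 14768 to 16306 genes detected. Tumor GNP libraries 1, 2 and 4 were close to each other: for low-count genes, the chi-square divided by its degrees of freedom was 1.21 to 1.59 among them and 4.17 to 14.25 in all remaining within-group pairs. They were therefore counted as 1 sample in each mean ± SD (n = 2: their mean, and library 3). A gene was called higher or lower in tumor GNPs only when its adjusted p was under 0.05, in the same direction, both with these 3 libraries summed and with all 4 kept apart. Log2 fold changes (tumor GNPs over normal astrocytes), standard errors (SE) and adjusted p-values are from the summed fit of edgeR's quasi-likelihood test. Levels are CPM, read counts scaled to the size of each library after normalisation. In bulk RNA, fewer cells of a type and less RNA per cell cannot be told apart. Where a gene had no count in any library of a group, its fold is given as "at least", from a floor of 3 counts per library (0.314 CPM in tumor GNPs and 0.294 CPM in normal astrocytes).

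The labels were first checked against defining markers. In tumor GNPs, Atoh1, the transcription factor of the granule lineage, had 56.6, 54.8, 24.7 and 59.4 CPM in libraries 1 to 4, against 0 CPM in every normal astrocyte library. Normal astrocytes held many astrocyte genes, and neuronal transcripts beside them. The 34 genes of an astrocyte list summed to 1304 to 1769 CPM in tumor GNPs, against 13334 to 20876 CPM in normal astrocytes. Aldoc, a gene of astrocytes and also of Purkinje cells, had 4261 to 11336 CPM in normal astrocytes, a large part of that sum. Pcp2, a gene of Purkinje cells, had 0 CPM in each tumor GNP library, against 2996, 1090, 3644 and 4483 CPM in normal astrocyte libraries 1 to 4. Its list of Purkinje cell and interneuron genes summed to 308 to 393 CPM in tumor GNPs and 5904 to 22024 CPM in normal astrocytes. Several defining astrocyte markers were low in the libraries labelled normal astrocyte. Gfap, the intermediate filament of astrocytes, had 19.7, 23.8, 30.0 and 24.2 CPM in tumor GNPs, against 1.13, 41.1, 0.946 and 1.76 CPM in normal astrocytes. Gja1, the gap junction protein connexin 43, reached at most 0.324 CPM in tumor GNPs and 0.585 CPM in normal astrocytes and was not tested. Transcripts of neurons and of astrocytes were thus both measured in normal astrocytes, and the part of neurons in the differences below was not tested.

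**Figure D1:**
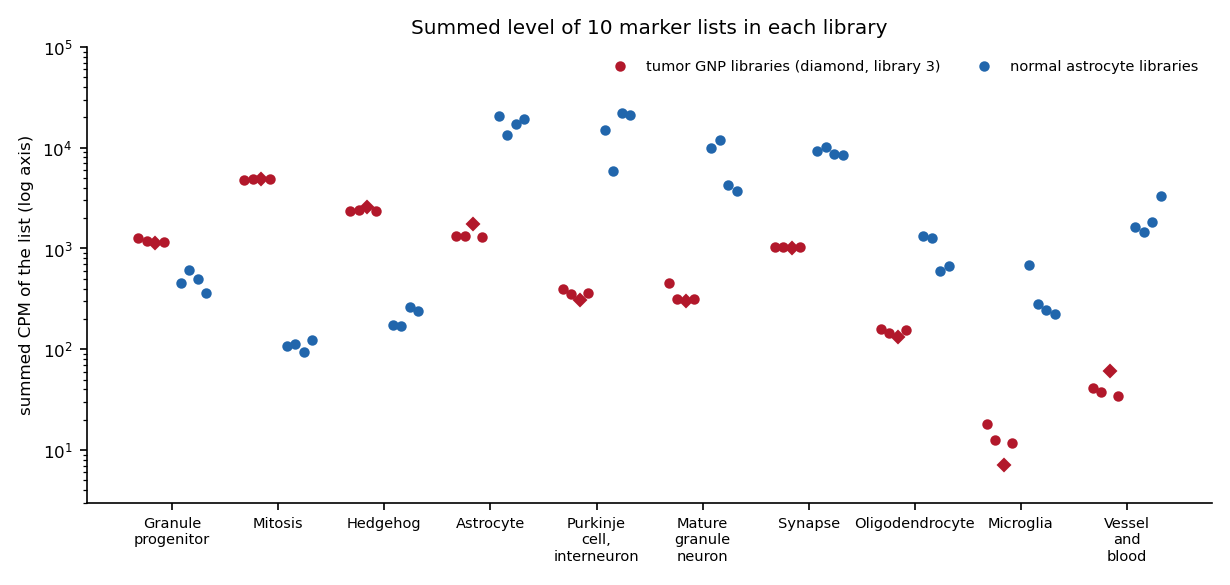
Summed CPM (log axis) of the genes of 10 marker lists in each library, tumor GNPs in red to the left (diamond, library 3) and normal astrocytes in blue. Purkinje cell and interneuron genes summed to 308 to 393 CPM in tumor GNPs and 5904 to 22024 CPM in normal astrocytes, and mitosis genes to 4788 to 4939 CPM in tumor GNPs and 94.3 to 123 CPM in normal astrocytes.

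Normal astrocyte libraries 1 and 2, and 3 and 4, formed pairs in the sex-linked and mature granule neuron genes below. Pairing over whole libraries depended on the measure. Correlations of log2 CPM were 0.832 (libraries 1 and 2), 0.831 (3 and 4) and 0.835 (1 and 4). For low-count genes, the chi-square divided by its degrees of freedom was 12.72, 12.83 and 12.97 in the same order. Over genes of all count levels it was 86.78, 92.07 and 104.75 in that order, and 137.69 to 184.34 in the remaining pairs. By that measure libraries 1 and 2, and 3 and 4, were the closest pairs. Xist, the RNA of the inactive X chromosome, had 52.4, 49.1, 90.9 and 51.4 CPM in tumor GNPs, against 0, 0, 13.3 and 20.3 CPM in normal astrocytes (adjusted p = 0.279). The Y-linked gene Ddx3y had 0 CPM in every tumor GNP library, against 11.2, 16.8, 0 and 0 CPM in normal astrocytes. Of 3 Y-linked genes tested 1, Kdm5d, fell, and none without any 1 of the tumor GNP libraries 1, 3 or 4 or normal astrocyte libraries 1 or 2, while all 3 fell without normal astrocyte library 3 or 4. Mature granule neuron genes summed to 300 to 458 CPM in tumor GNPs, against 9926 and 11864 CPM in normal astrocyte libraries 1 and 2 and 4222 and 3741 CPM in libraries 3 and 4. Each count below was therefore also taken without either pair, and is given where that changed it by over 1.5 times.

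Of 14393 genes tested, 2006 were higher in tumor GNPs (13.9%) and 1929 were lower (13.4%), 27.3% in either direction. All 4 tumor GNP libraries lay above all 4 normal astrocyte libraries for 3168 genes (22%) and below them for 2809 (19.5%). The median log2 fold change was 0.10. With all 4 tumor GNP libraries kept apart, the 12-library fit alone gave 2933 higher and 3423 lower. Leaving out tumor GNP library 3 gave 1558 higher and 1302 lower, but tumor GNPs are then 1 summed sample, which is assumed to vary like the other groups; this holds for each result without that library. With these cell types fitted without the tumor-derived astrocytes, 12597 genes were tested, and 1030 were higher and 1286 lower.

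**Figure D2:**
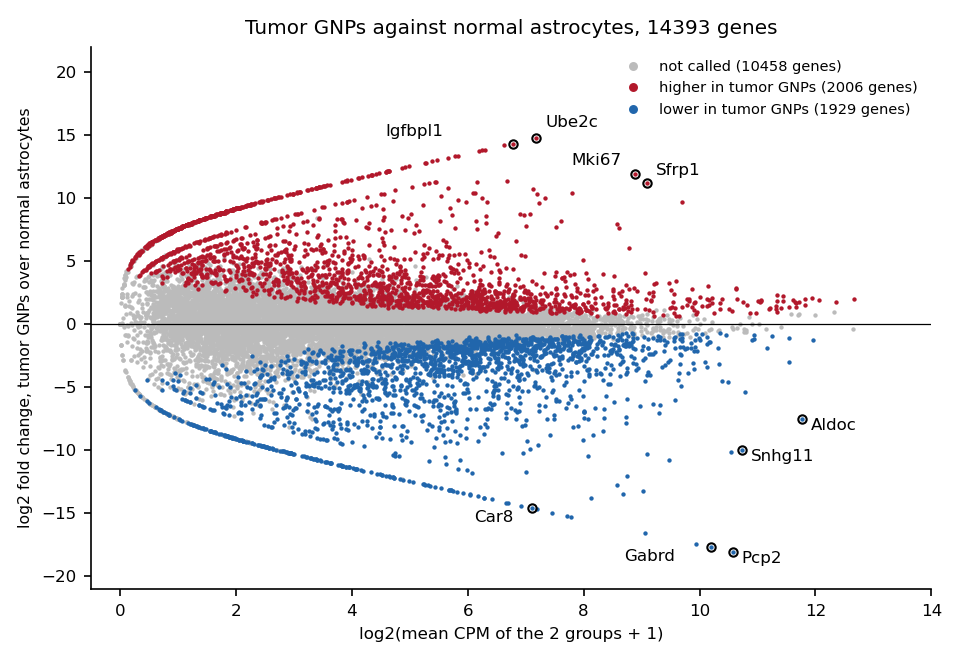
Fitted log2 fold change, tumor GNPs over normal astrocytes, against log2(mean CPM of both groups + 1) for the 14393 genes tested. Red points are the 2006 genes higher in tumor GNPs and blue points the 1929 lower, and the curved edges are genes with no count in 1 group, whose fitted value depends on the prior count.

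Among the lists examined, mitosis genes had the highest share called higher, 97.6%. Of 41 mitosis genes tested, 40 rose in tumor GNPs and none fell, and Mybl2 was the 1 not called, at 35.5 CPM in tumor GNPs and 12.7 CPM in normal astrocytes. Mki67, a nuclear protein of dividing cells, had 946, 967, 931 and 962 CPM in tumor GNPs, against 0.0946, 0.908, 0 and 0.0976 CPM in normal astrocytes (adjusted p = 5.55e-06). Top2a, the topoisomerase that untangles chromosomes, had 331, 346, 300 and 348 CPM in tumor GNPs, against 0.946, 0.113, 0 and 0.195 CPM in normal astrocytes (adjusted p = 1.17e-05). Both genes were near 0 in every normal astrocyte library, so the groups did not overlap. Ube2c, which loads ubiquitin for the anaphase promoting complex, had 309, 329, 253 and 336 CPM in tumor GNPs and no count in normal astrocytes, at least 983-fold higher. Bub1b, a kinase of the spindle checkpoint, was at least 368-fold higher, and Ccnb1, the mitotic cyclin B1, at least 296-fold higher.

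Short motifs were counted in the promoters of mitosis genes. CCAAT is the box bound by the factor NF-Y, and TTTGAA is a form of the CHR element, both known from promoters of cell cycle genes. Of the 41 tested mitosis genes, 34 had a RefSeq promoter (GRCm38.p6), and 73.5% of these held CCAAT on either strand within 250 bases before the start, against 36.2% of promoters of all genes tested and 34.5% of all 27025 promoters. CCAAT was also in 63.6% of replication promoters, in 65.0% of repair promoters and in 40.9% of promoters of all genes called higher, so it was not particular to mitosis genes. TTTGAA was in 35.3% of mitosis promoters, against 9.1% of replication promoters, 5.0% of repair promoters, 10.1% of promoters of all genes tested and 16.3% of all promoters. Promoter entries were found for 82.9% of mitosis, 78.6% of replication and 83.3% of repair genes and for 69.3% of all genes tested, and the shares describe those genes only. These motifs were picked for display after the shares of 18 motifs had been seen, and a match is a description, not a bound site. The 250 bases before the start of 4 genes are printed because these genes were at or near 0 in normal astrocytes and high in tumor GNPs, with matches to both motifs, on either strand, in capitals. They are Mki67 (chr7:135716380-135716629, minus strand), Ccnb1 (chr13:100786487-100786736, minus strand), Bub1b (chr2:118597961-118598210, plus strand) and Ube2c (chr2:164769679-164769928, plus strand).
Mki67: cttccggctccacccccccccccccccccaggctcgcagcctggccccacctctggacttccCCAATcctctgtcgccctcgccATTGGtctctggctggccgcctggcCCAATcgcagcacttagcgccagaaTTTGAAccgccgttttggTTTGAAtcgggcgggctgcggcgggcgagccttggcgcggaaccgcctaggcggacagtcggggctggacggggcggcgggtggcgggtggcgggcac
Ccnb1: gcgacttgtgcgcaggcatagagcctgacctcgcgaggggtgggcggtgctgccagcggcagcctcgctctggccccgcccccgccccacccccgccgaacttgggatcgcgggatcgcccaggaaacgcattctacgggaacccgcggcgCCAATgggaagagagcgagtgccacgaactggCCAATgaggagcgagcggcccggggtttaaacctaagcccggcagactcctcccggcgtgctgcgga
Bub1b: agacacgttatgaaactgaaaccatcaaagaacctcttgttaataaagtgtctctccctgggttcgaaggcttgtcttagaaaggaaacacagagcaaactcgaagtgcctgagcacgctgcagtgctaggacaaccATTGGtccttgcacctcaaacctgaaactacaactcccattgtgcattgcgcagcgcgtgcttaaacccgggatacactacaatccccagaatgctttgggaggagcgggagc
Ube2c: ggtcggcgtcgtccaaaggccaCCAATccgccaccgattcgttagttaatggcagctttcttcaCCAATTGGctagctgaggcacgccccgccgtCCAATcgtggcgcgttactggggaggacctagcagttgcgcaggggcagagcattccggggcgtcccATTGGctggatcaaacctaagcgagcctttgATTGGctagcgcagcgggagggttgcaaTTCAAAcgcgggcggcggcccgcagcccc
Mki67 held 3 matches to CCAAT and 2 to TTTGAA, and Ube2c 6 and 1, where a pair of its CCAAT matches overlap. Ccnb1 held 2 and Bub1b 1 match to CCAAT, and neither had TTTGAA in this window. The Ccnb1 window did hold TTTAAA, another CHR form searched, which is left in lower case. TTTAAA was in 17.6% of mitosis promoters and 8.4% of promoters of all genes tested.

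DNA replication genes moved with them. Of 42 tested, 30 rose in tumor GNPs and none fell. Mcm3, a subunit of the replicative helicase, had 123, 128, 120 and 128 CPM in tumor GNPs, against 0, 0.340, 0.172 and 0.0976 CPM in normal astrocytes (adjusted p = 5.55e-06). Mcm6, of the same helicase, averaged 865 CPM in tumor GNPs and 14.18 CPM in normal astrocytes. Chaf1b, a histone chaperone of the replication fork, was at least 276-fold higher, and Gins2, a helicase cofactor, at least 200-fold higher. Mcm10, a replication initiation factor, had 43.2, 48.99 and 44.8 CPM in tumor GNP libraries 1, 2 and 4 and 112 CPM in library 3, against at most 0.0860 CPM in normal astrocytes. The replication genes not called included Rfc2, at 289 CPM in tumor GNPs and 216 CPM in normal astrocytes. Thus genes of this list were not uniformly at 0 in normal astrocytes.

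Of 24 DNA repair genes, 14 rose and none fell. Brca1, of homologous recombination, had 69.1, 75.8, 128 and 80.2 CPM in tumor GNPs, against 0, 0, 0 and 0.683 CPM in normal astrocytes. Clspn, a checkpoint adaptor, was at least 144-fold higher in tumor GNPs. Trp53 was not called, at 4.06 CPM in tumor GNPs and 4.86 CPM in normal astrocytes. Without tumor GNP library 3, 9 repair genes passed, and with these cell types fitted alone, 8.

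Genes that govern entry into S phase were partly higher: of 24, 12 rose and none fell. Ccnd2, cyclin D2, had 664, 664, 888 and 643 CPM in tumor GNPs, against 0.189, 6.58, 3.18 and 6.73 CPM in normal astrocytes (fitted log2 fold change 7.63, SE 0.83, adjusted p = 7.35e-05). Ccnd1, cyclin D1, had 67.7, 54.9, 46.5 and 55.5 CPM in tumor GNPs, against 1.04, 0.113, 2.75 and 5.17 CPM in normal astrocytes (adjusted p = 0.0024). Cdk4, a partner kinase of the D cyclins, averaged 679 CPM in tumor GNPs and 51.9 CPM in normal astrocytes (adjusted p = 0.00044). E2f1, a transcription factor of the S phase program, averaged 96.0 CPM in tumor GNPs and 1.09 CPM in normal astrocytes, and E2f2 was at least 163-fold higher. Cdkn1c, an inhibitor of cyclin-dependent kinases, rested on 1 library, with 2.05, 2.34, 49.4 and 1.28 CPM in tumor GNPs, against 0.662, 0, 0 and 0.195 CPM in normal astrocytes. Without tumor GNP library 3 its adjusted p was 0.14, the highest over its alternatives (5.6e-06 to 0.14). Ccnd3, Cdkn1a and Cdkn1b did not pass.

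**Figure D3:**
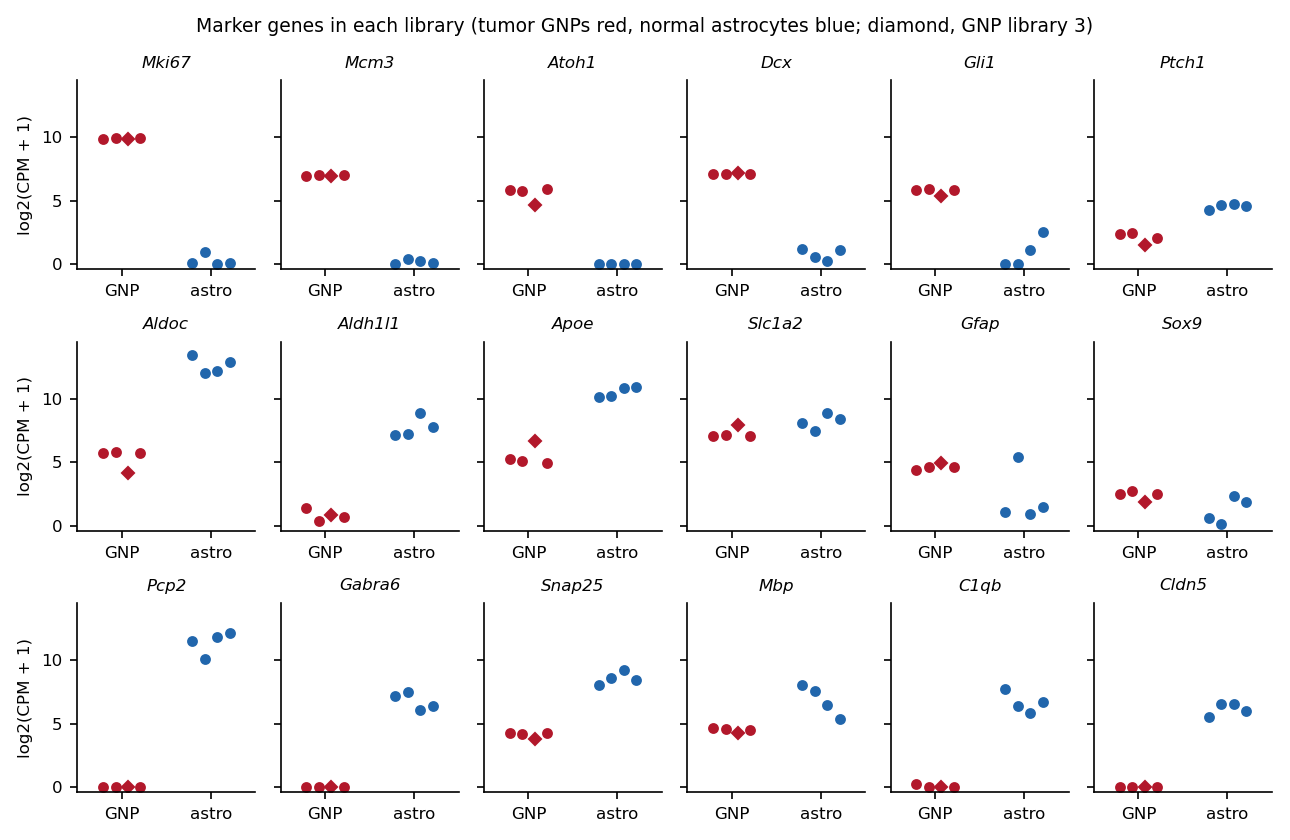
log2(CPM + 1) of 18 marker genes in each library, tumor GNPs (red, left; diamond, library 3) and normal astrocytes (blue, right). Mki67 lay at 931 to 967 CPM in tumor GNPs against at most 0.908 CPM in normal astrocytes, Ptch1 was lower in tumor GNPs, and Gfap, Sox9 and Slc1a2 overlapped between groups.

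Of 17 granule progenitor genes tested, 9 rose in tumor GNPs and none fell, although 3 fell in the 12-library fit alone and 1 without normal astrocyte libraries 3 and 4. Atoh1, shown above, was at least 139-fold higher (adjusted p = 0.000211), and Nhlh1, a related factor of early neurons, at least 90.3-fold higher. Barhl1, a homeobox factor of the granule lineage, had 184, 117, 106 and 109 CPM in tumor GNPs, against 3.78, 7.38, 1.98 and 1.85 CPM in normal astrocytes (adjusted p = 9.73e-05). Sox11, a factor of immature neurons, had 373, 376, 397 and 378 CPM in tumor GNPs, against 0.284, 0, 1.72 and 3.61 CPM in normal astrocytes. These groups did not overlap. Others of the list were present in both cell types: Zic1 averaged 65.7 ± 4.8 CPM in tumor GNPs (SD, n = 2) and 127 ± 48.3 CPM in normal astrocytes (SD, n = 4; adjusted p = 0.106), and Pax6 151 ± 12 and 91.2 ± 28.3 CPM (adjusted p = 0.0855). Neurod1, of differentiating granule neurons, was at 38.3 and 85.9 CPM in the same order of groups (adjusted p = 0.158). Pax6 passed without normal astrocyte library 2, at 0.049 (0.021 to 0.22 over its alternatives). Mycn was at most 1.04 CPM in tumor GNPs and 0.0976 CPM in normal astrocytes and was not tested.

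Of 19 Hedgehog genes, 8 rose and 1 fell. Some genes stand in more than 1 list, and Ccnd2, given above among the S phase genes, was also among these 8. Smo, the signal transducer Smoothened, had 177, 178, 113 and 184 CPM in tumor GNPs, against 16.7, 1.13, 14.96 and 34.7 CPM in normal astrocytes (adjusted p = 0.012). Gli1, a target and effector of the pathway, had 55.6, 59.6, 41.4 and 56.7 CPM in tumor GNPs, against 0, 0, 1.20 and 4.68 CPM in normal astrocytes (adjusted p = 0.00756). Both were higher in every tumor GNP library. Sfrp1, a secreted binder of Wnt proteins, had 1021, 1060, 1145 and 1037 CPM in tumor GNPs, against 0, 0, 0.516 and 1.37 CPM in normal astrocytes (adjusted p = 7.65e-06). The member that fell was Ptch1, the main receptor and brake of the pathway and also one of its targets, with 4.32, 4.58, 1.87 and 3.31 CPM in tumor GNPs, against 18.4, 24.4, 25.5 and 23.7 CPM in normal astrocytes (fitted log2 fold change -2.83, SE 0.65, adjusted p = 0.00743). The labels give no Ptch1 allele. Ptch1 lies on chromosome 13, which had lower values than the other chromosomes, as given under Other observations. Gli2, Gli3, Sufu and Boc did not pass, although Gli2 did without normal astrocyte library 4, at 0.011 (0.01 to 0.16 over its alternatives), and Shh was not tested. With these cell types fitted alone, 5 members rose, and the adjusted p of Gli1 was 0.061 (3e-05 to 0.061 over its alternatives). Ptch1 missed the threshold without tumor GNP library 3, at 0.065 (1.5e-07 to 0.065), and 14 members rose without normal astrocyte libraries 3 and 4.

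Genes of young neurons were more often higher: of 26, 13 rose (50%) and 3 fell (11.5%), against 13.9% and 13.4% of all genes tested. Dcx, a microtubule protein of migrating neurons, had 135, 137, 143 and 136 CPM in tumor GNPs, against 1.32, 0.454, 0.172 and 1.17 CPM in normal astrocytes (fitted log2 fold change 7.56, SE 0.65, adjusted p = 1.86e-05). Marcksl1, an actin regulator, had 209, 210, 299 and 201 CPM in tumor GNPs, against 0, 0, 2.75 and 2.05 CPM in normal astrocytes. Tubb3, a neuronal tubulin, had 456, 485, 561 and 473 CPM in tumor GNPs, against 67.1, 104, 69 and 73.4 CPM in normal astrocytes (adjusted p = 0.000182). Map1b, Ina and Ncam1, of axons and the neuronal cytoskeleton or surface, were the 3 that fell, and Gap43 and Stmn2 did not pass. Without tumor GNP library 3 none fell, and with these cell types fitted alone 8 rose and 1 fell.

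Of 32 astrocyte genes tested, 26 fell in tumor GNPs and none rose, although 1 rose without normal astrocyte library 2 and without libraries 1 and 2. Aldoc, an aldolase of astrocytes and Purkinje cells, had 51.4, 55.6, 16.8 and 53.5 CPM in tumor GNPs, against 11336, 4261, 4568 and 7658 CPM in normal astrocytes (adjusted p = 6.7e-05). Its level there does not separate astrocytes from Purkinje cells. Aldh1l1, a folate enzyme used as an astrocyte marker, had 1.62, 0.306, 0.830 and 0.640 CPM in tumor GNPs, against 138, 147, 465 and 216 CPM in normal astrocytes (adjusted p = 2.38e-05). Apoe, a lipid carrier, had 37.5, 34.1, 98.9 and 29.2 CPM in tumor GNPs, against 1116, 1213, 1802 and 1946 CPM in normal astrocytes (adjusted p = 0.000368). Its log2 fold change was -4.43, and -5.37 without tumor GNP library 3. Aqp4, the water channel of endfeet, had a count in 1 tumor GNP library, at 0.102 CPM, against 19.1, 11.7, 34.0 and 18.1 CPM in normal astrocytes. S100b, a calcium-binding protein, had 231, 237, 380 and 224 CPM in tumor GNPs, against 986, 1057, 1151 and 974 CPM in normal astrocytes (fitted log2 fold change -1.68, SE 0.38, adjusted p = 0.00687).

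Glutamate clearance genes were less clear. Slc1a3, the transporter GLAST, had 26.1, 28.2, 23.8 and 29.9 CPM in tumor GNPs, against 91.1, 67.5, 658 and 399 CPM in normal astrocytes (fitted log2 fold change -3.45, SE 0.87, adjusted p = 0.0126). That change was -1.49 without normal astrocyte libraries 3 and 4 and -2.74 without library 3, and the adjusted p was 0.087 without tumor GNP library 3 (1.9e-05 to 0.087 over its alternatives). Slc1a2, the transporter GLT-1, had 130, 138, 239 and 135 CPM in tumor GNPs, against 268, 179, 478 and 336 CPM in normal astrocytes, and was not called (adjusted p = 0.359). Glul, Sparcl1, Slc6a11, Gfap and Sox9 did not pass either. For Gfap this rested on normal astrocyte library 2: without it Gfap was higher in tumor GNPs, with a log2 fold change of 4.45 and an adjusted p of 0.00017 (0.00017 to 0.86 over its alternatives), against 1.33 and 0.449 with all libraries. Of 10 genes of Bergmann and radial glia, Vim and Nes, intermediate filaments of progenitors, rose, and 4 fell. Nes averaged 128 ± 31 CPM in tumor GNPs (SD, n = 2) and 17.1 ± 6.75 CPM in normal astrocytes (SD, n = 4; adjusted p = 0.000306). The count that fell was 1 without tumor GNP library 3 and 9 without normal astrocyte libraries 1 and 2.

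Genes of mature cerebellar neurons were lower in tumor GNPs. All 16 granule neuron genes tested fell, as did 17 of 21 Purkinje cell and interneuron genes. Gabrd, the delta subunit of GABA receptors, had no count in tumor GNPs and 3158, 3837, 1016 and 1340 CPM in normal astrocytes. Gabra6, the granule neuron subunit, had none in tumor GNPs and 142, 182, 66.2 and 82.1 CPM in normal astrocytes. Both were higher in normal astrocyte libraries 1 and 2 than in libraries 3 and 4. Pcp2, shown above, fell (adjusted p = 5.4e-05), and Calb1, a calcium buffer of Purkinje cells, averaged 0.652 CPM in tumor GNPs and 1418 CPM in normal astrocytes. Foxp2, Lhx1 and Lhx5 were among those of that list not called.

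Of 31 synapse genes, 23 fell, of 32 ion transport genes 23 fell, and none of either list rose, although 1 ion transport gene rose without normal astrocyte libraries 3 and 4. Snap25, of vesicle fusion, had 18.5, 17.3, 12.8 and 18.8 CPM in tumor GNPs, against 258, 384, 611 and 345 CPM in normal astrocytes (fitted log2 fold change -4.58, SE 0.56, adjusted p = 0.000169). Scn1a, a sodium channel, was at least 154-fold lower. Of 17 transmitter receptor genes 10 fell, and Grin2b rose. Without tumor GNP library 3, 4 receptor genes fell, and with these cell types fitted alone 6 fell and none rose.

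**Figure D4:**
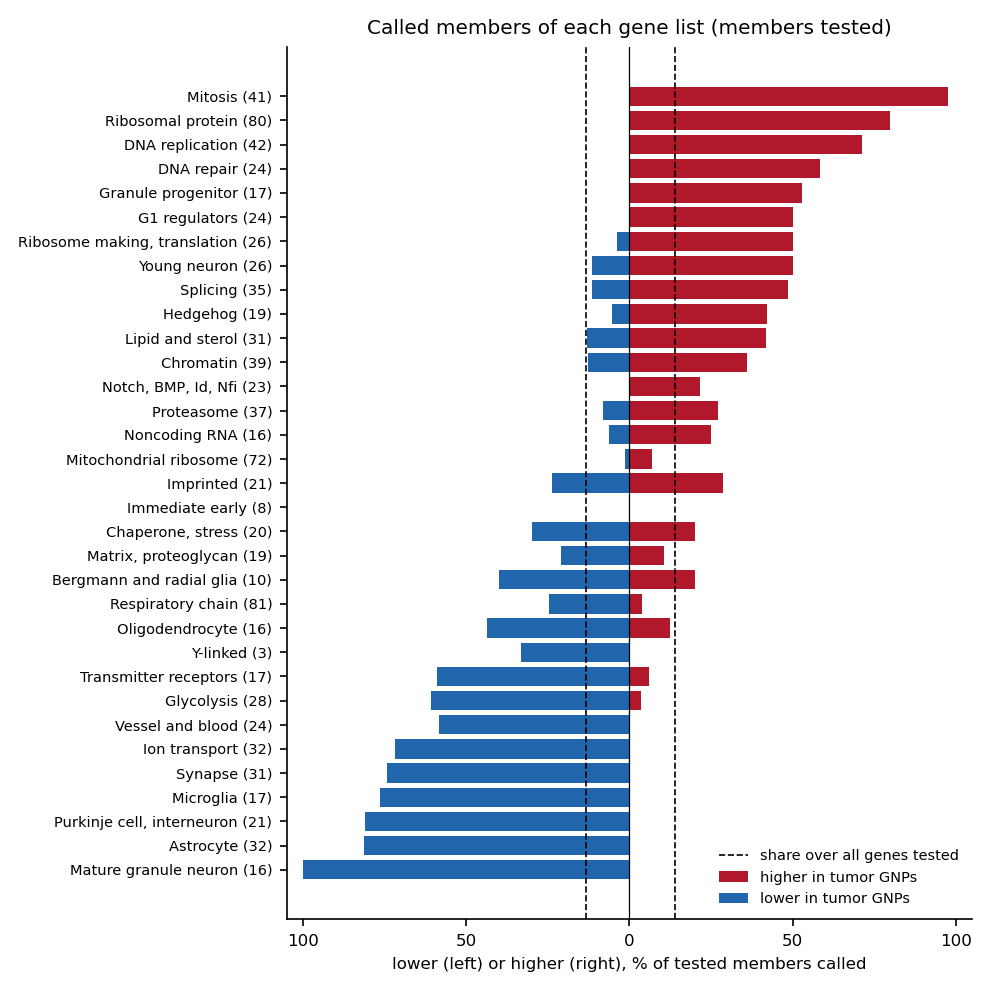
Percent of the tested members of 33 gene lists called higher (right, red) or lower (left, blue) in tumor GNPs, with the number tested in brackets and dashed lines at the shares over all genes tested, 13.9% higher and 13.4% lower. Mitosis, ribosomal protein and replication genes lead to the right, and mature granule neuron, astrocyte and Purkinje cell genes to the left.

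The median log2 fold change of the tested members was 7.57 for mitosis genes and 3.901 for replication genes, or 6.98 and 3.73 when each gene without a count in normal astrocytes takes its lower bound. It was 2.40 for Hedgehog genes, 1.68 for ribosomal protein genes and 1.19 for granule progenitor genes. It was -4.21 for astrocyte genes, -5.85 for mature granule neuron genes and -7.01 for Purkinje cell and interneuron genes. Over all genes tested the median was 0.10.

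In 7 of the 38 pairs of related genes examined, members were called in opposite directions. Pairs of this kind can share reads, and the counting method is not given in the sources used here. Fabp5, a fatty acid carrier of progenitors, had 1371, 1414, 1398 and 1430 CPM in tumor GNPs, against 98.5, 125, 188 and 133 CPM in normal astrocytes (fitted log2 fold change 3.46, SE 0.27, adjusted p = 8.42e-06). Its relative Fabp3 had 7.02, 5.91, 19.4 and 5.98 CPM in tumor GNPs, against 67.1, 65.0, 340 and 325 CPM in normal astrocytes (adjusted p = 0.00719). Tubb5, a beta tubulin, rose (log2 fold change 2.92, SE 0.22, adjusted p = 6.92e-06), and Tubb4a fell by 4.08 on the log2 scale (SE 0.42, adjusted p = 5.05e-05). Tuba1a and Tuba4a, alpha tubulins, moved the same ways. Slc17a6 and Slc17a7 load glutamate into vesicles, and the first averaged 26.3 CPM in tumor GNPs and 0.0244 CPM in normal astrocytes, while the second averaged 1.22 CPM in tumor GNPs and 138 CPM in normal astrocytes. Eef1a1, an elongation factor, rose (log2 fold change 2.50, adjusted p = 3e-05), and Eef1a2, its form in neurons and muscle, had a count in 1 tumor GNP library, at 0.104 CPM, against 15.4 to 33.9 CPM in normal astrocytes. Grin2b and Hk2 rose while Grin2c and Hk1 fell; with these cell types fitted alone the adjusted p was 0.1 for Grin2b (0.00068 to 0.1 over its alternatives) and 0.055 for Hk2 (3e-05 to 0.055), and Hk1 had 0.12 without tumor GNP library 3 (0.00045 to 0.12).

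**Figure D5:**
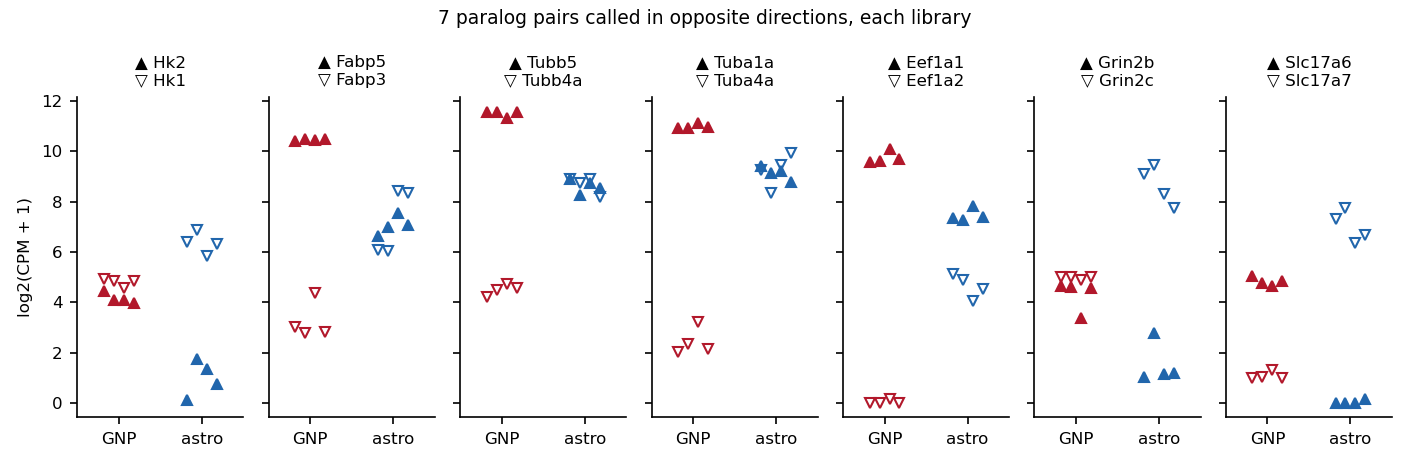
log2(CPM + 1) of the 7 pairs of related genes called in opposite directions, in each library of tumor GNPs (red, left) and normal astrocytes (blue, right). Filled triangles are the gene higher in tumor GNPs and open triangles the gene lower there; Fabp5 lay at 1371 to 1430 CPM in tumor GNPs and 98.5 to 188 CPM in normal astrocytes.

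Most genes of cytosolic ribosomal proteins were higher in tumor GNPs. Of 80 ribosomal protein genes tested, 64 rose and none fell. In 7 alternatives 1 fell, among them RLE scaling, DESeq2, and leaving out tumor GNP library 1 or normal astrocyte library 4. Their share of all counts was 21.85 to 25.65% in tumor GNPs and 5.95 to 9.82% in normal astrocytes, where libraries 1 and 2 had more than libraries 3 and 4. Rpl23 had 3095, 3288, 2319 and 3102 CPM in tumor GNPs, against 359, 484, 518 and 313 CPM in normal astrocytes (fitted log2 fold change 2.81, SE 0.27, adjusted p = 3e-05). This family has near-identical pseudogenes, so its counts are uncertain. Of 26 genes of ribosome assembly and translation, 13 rose and Eef1a2 fell. Fbl, a nucleolar methyltransferase, averaged 216 ± 22 CPM in tumor GNPs (SD, n = 2) and 40.9 ± 7.02 CPM in normal astrocytes (SD, n = 4; adjusted p = 0.000152). Of 72 mitochondrial ribosomal protein genes, 5 rose (6.9%) and 1 fell (1.4%), against 13.9% and 13.4% of all genes tested. The count that rose was 1 without tumor GNP library 3, 2 without normal astrocyte library 1 or libraries 1 and 2, 10 without normal astrocyte library 3, 14 without normal astrocyte libraries 3 and 4, and 15 in the 12-library fit alone, and the count that fell was 11 in that last fit and 5 in DESeq2 or without normal astrocyte libraries 3 and 4.

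Of 35 splicing genes, 17 rose and 4 fell, and 11 rose and 2 fell without tumor GNP library 3. Snrpe, a core protein of small nuclear particles, had 1230, 1232, 1318 and 1234 CPM in tumor GNPs, against 168, 142, 141 and 116 CPM in normal astrocytes (fitted log2 fold change 3.27, SE 0.22, adjusted p = 5.55e-06). The 4 that fell, Snrpn, Rbfox1, Rbfox3 and Celf4, are known from mature neurons. They made up 11.4% of the list, near the 13.4% lower over all genes tested. Ptbp1, a repressor of neuronal exons, averaged 12.98 CPM in tumor GNPs and 0.153 CPM in normal astrocytes (adjusted p = 0.000242). Of 39 chromatin genes, 14 rose (35.9%) and 5 fell (12.8%), against 13.9% and 13.4% of all genes tested. Hmgn2, a nucleosome-binding protein, averaged 297 CPM in tumor GNPs and 18.8 CPM in normal astrocytes, and Hdac11, a histone deacetylase, 5.05 CPM in tumor GNPs and 373 CPM in normal astrocytes. Chromatin counts that rose were 9 with these cell types fitted alone and 22 in the 12-library fit, and 2 fell without tumor GNP library 3.

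Of 28 genes of glycolysis and sugar use, 17 fell and 1, Hk2, rose. Eno2, the neuronal enolase, had 1.19, 0.815, 0.623 and 0.747 CPM in tumor GNPs, against 1213, 1545, 706 and 915 CPM in normal astrocytes (fitted log2 fold change -10.30, SE 0.69, adjusted p = 5.55e-06). Tpi1, triose phosphate isomerase, averaged 626 ± 37 CPM in tumor GNPs (SD, n = 2) and 5348 ± 1318 CPM in normal astrocytes (SD, n = 4; adjusted p = 9.8e-05). Ldhb averaged 247 CPM in tumor GNPs and 2328 CPM in normal astrocytes, while Ldha, the other lactate dehydrogenase, was not called, at 382 and 339 CPM in the same order of groups. Of 81 nuclear genes of the respiratory chain, 20 fell (24.7%) and 3 rose (3.7%), against 13.4% and 13.9% of all genes tested. Those that rose were Cox6a2, Cox8b and Atp5g2. For Cox8b the adjusted p was 0.033, and 0.079 without normal astrocyte libraries 3 and 4. Only 9 fell without tumor GNP library 3, while 43 fell in the 12-library fit alone, and 5 rose without normal astrocyte libraries 3 and 4. Ndufv1, of complex I, averaged 329 ± 19 CPM in tumor GNPs (SD, n = 2) and 1395 ± 171 CPM in normal astrocytes (SD, n = 4; adjusted p = 0.00011). Of 37 proteasome genes, 10 rose (27.0%) and 3 fell (8.1%). Without tumor GNP library 3 these counts were 2 and 1, with these cell types fitted alone 6 rose, and in the 12-library fit 17 rose.

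Of 31 lipid and sterol genes, 13 rose (41.9%) and 4 fell (12.9%), against 13.9% and 13.4% of all genes tested. Without normal astrocyte libraries 1 and 2, 7 fell. Those that rose included Hmgcs1, Fdps, Fdft1, Sqle, Lss, Cyp51, Msmo1, Nsdhl and Dhcr7, enzymes of cholesterol synthesis, Srebf1 and Srebf2, its transcription factors, and Fabp5. Cyp51 averaged 199 CPM in tumor GNPs and 25.2 CPM in normal astrocytes (adjusted p = 0.0021), and Msmo1 209.7 CPM in tumor GNPs and 28.7 CPM in normal astrocytes (adjusted p = 0.0012). Nsdhl missed the threshold with no filter on low counts, at 0.08 (0.0037 to 0.08 over its alternatives). Those that fell were Cyp46a1, which removes cholesterol from neurons, Acsbg1 and Acsl6, which activate fatty acids, and Fabp3. Acsbg1 had 0.432, 0.306, 1.25 and 0.747 CPM in tumor GNPs, against 286, 364, 846 and 513 CPM in normal astrocytes.

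Of 23 Notch, BMP, Id and nuclear factor I genes, 5 rose and none fell, although 1 fell without tumor GNP library 3, without normal astrocyte library 2 and without either pair of normal astrocyte libraries. Dll3, a Notch ligand, had 49.6, 54.2, 52.2 and 49.6 CPM in tumor GNPs, against 1 normal astrocyte library with a count, at 0.0860 CPM. Nfib, a factor of glial and granule cell development, had 699, 686, 920 and 723 CPM in tumor GNPs, against 153, 143, 77.9 and 95.4 CPM in normal astrocytes (fitted log2 fold change 2.89, SE 0.29, adjusted p = 4.54e-05). The others were Nfia, Hey1 and Jag1. Of 19 matrix genes, Lgals1 and Acan rose (10.5%) and 4 fell (21.1%), against 13.9% and 13.4% of all genes tested. Bcan, a proteoglycan of glia, was among the 4. Of 21 imprinted genes, 6 rose and 5 fell. Igf2, a growth factor, had 36.2, 29.4, 40.4 and 26.7 CPM in tumor GNPs, against 0.567, 2.50, 1.72 and 3.81 CPM in normal astrocytes (fitted log2 fold change 4.14, SE 0.63, adjusted p = 0.00071). Without tumor GNP library 3, 3 imprinted genes rose. Of 20 chaperone and stress genes, 4 rose and 6 fell. Without that library 1 fell, and without normal astrocyte libraries 1 and 2 only 2 rose. Among 8 immediate early genes, Btg2 was the 1 that passed in the 12-library fit, and it missed in the summed fit, at 38.8 CPM in tumor GNPs and 7.21 CPM in normal astrocytes (adjusted p = 0.0692). Without normal astrocyte library 3, or libraries 3 and 4, 1 of these genes rose.

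Among 16 noncoding RNAs, 4 rose and Snhg11 fell, and 2 rose without tumor GNP library 3 and 2 fell without normal astrocyte libraries 3 and 4. Snhg11 had 3.67, 4.58, 2.39 and 3.52 CPM in tumor GNPs, against 2987, 2872, 3795 and 4005 CPM in normal astrocytes (fitted log2 fold change -9.94, SE 0.74, adjusted p = 6.92e-06). Miat had 497, 536, 462 and 512 CPM in tumor GNPs, against 0, 0, 24.7 and 35.0 CPM in normal astrocytes, with an adjusted p of 0.0191 and of 0.11 with no filter on low counts (2.8e-05 to 0.11 over its alternatives).

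Markers of microglia and vessels were low in tumor GNPs and present in normal astrocytes, and oligodendrocyte genes were more often lower than higher. Of 17 microglia genes tested 13 fell, of 24 vessel and blood genes 14 fell, and none of either rose, although 1 microglia gene rose without normal astrocyte library 1 and without libraries 1 and 2. All 22 microglia genes summed to 7.06 to 17.9 CPM in tumor GNPs and 225 to 678 CPM in normal astrocytes, and 7 of them had no count in tumor GNPs. The 26 vessel and blood genes summed to 33.9 to 61.1 CPM in tumor GNPs and 1464 to 3332 CPM in normal astrocytes. Hbb-bs, a hemoglobin gene of the blood, had 850, 650, 672 and 1995 CPM in normal astrocytes, a large part of that sum. C1qb, a complement component of microglia, had 0.216, 0, 0 and 0 CPM in tumor GNPs, against 211, 83.7, 57.4 and 104 CPM in normal astrocytes. Cldn5, of endothelial junctions, had no count in tumor GNPs, against 45.2, 90.9, 91.2 and 63.1 CPM in normal astrocytes, at least 231-fold lower in tumor GNPs. The 22 oligodendrocyte genes summed to 132 to 158 CPM in tumor GNPs and 603 to 1317 CPM in normal astrocytes. Of 16 tested 7 fell, 3 without tumor GNP library 3 and 11 without normal astrocyte library 3. Mobp, of myelin, had no count in tumor GNPs, against 196, 209, 99.0 and 70.1 CPM in normal astrocytes. Mbp, a protein of myelin, had 24.2, 22.5, 18.3 and 21.8 CPM in tumor GNPs, against 266, 187, 86.2 and 40 CPM in normal astrocytes (adjusted p = 0.0125). For Mbp the adjusted p was 0.089 without tumor GNP library 3 (8.9e-05 to 0.089 over its alternatives). Pdgfra, of the precursors of oligodendrocytes, and Bcas1 rose. They made up 12.5% of the 16 oligodendrocyte genes tested, near the 13.9% higher over all genes tested, while 43.8% fell, against 13.4%. Pdgfra had 13.9, 15.9, 7.37 and 15.3 CPM in tumor GNPs, against 0, 0, 0 and 1.66 CPM in normal astrocytes, and with these cell types fitted alone its adjusted p was 0.13 (0.00093 to 0.13 over its alternatives), while without normal astrocyte library 1 it was 0.051 and without tumor GNP library 3 it was 0.061. With these cell types fitted alone 8 microglia genes and 7 vessel and blood genes fell. The part of these cells in the other differences was not tested.

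The genes with the largest fitted changes were taken among called genes of at least 50 CPM whose groups did not overlap. Higher in tumor GNPs, beside Ube2c and Bub1b, were Igfbpl1, Pif1, Hsd11b2, Fam64a, 2810417H13Rik and Tnnt3. All of them had no count in normal astrocytes. Igfbpl1, a relative of insulin-like growth factor binding proteins, had 197, 198, 241 and 186 CPM in tumor GNPs (at least 740-fold higher), and Pif1, a DNA helicase, 187, 198, 199 and 191 CPM (at least 665-fold). Hsd11b2, which inactivates glucocorticoids, had 177, 187, 130 and 178 CPM (at least 528-fold), and Tnnt3, a troponin of fast muscle, 125, 130, 94.9 and 131 CPM (at least 381-fold). Lower in tumor GNPs, beside Pcp2 and Gabrd, were Gng13, Ppp1r17, Itpka, Fam107a, Wnt7a and Kcng4, none with a count there. Gng13, a G protein subunit, had 2551, 1129, 2028 and 2153 CPM in normal astrocytes, and Ppp1r17, a phosphatase inhibitor of Purkinje cells, 926, 412, 1477 and 1426 CPM. Wnt7a, a secreted ligand made by granule neurons, had 355, 732, 184 and 122 CPM there. By level, the genes lower in tumor GNPs were led by Aldoc, Pkm, Tpi1, Atp5b, Ckb and Pcp4, and those higher by ribosomal protein genes, among them Rps4x, Rps14, Rpl7 and Rps24, of which Rps24 had an adjusted p of 0.055 with these cell types fitted alone (0.00018 to 0.055 over its alternatives).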

How the data were processed

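Libraries of laser-captured cells were made, per the labels' protocols, from re-amplified 3′ end cDNA by Nextera XT tagmentation, so gene length has little bearing on a count. The authors deposited raw read counts per gene; per the submitters' processing notes FastQC and STAR were used with build mm10. The sources used here do not name the counting program, annotation or strand setting; antisense, overlapping and near-identical genes are therefore uncertain. Of 47284 lines, 767 repeated rows were removed, leaving 46517 genes, and 27 symbols turned into dates were restored. The 37 mitochondrial genes had 0 counts.

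edgeR 4.0.16 (R 4.3.3; TMM, filterByExpr with minimum count 10 and total 15, robust quasi-likelihood F-test, 3 group means) was fitted to 10 samples with tumor GNP libraries 1, 2 and 4 summed, and to 12 libraries, with 7 and 9 residual degrees of freedom. Benjamini-Hochberg adjustment was over all 14393 genes, with calls at 0.05 in both fits. SE is the size of the log2 fold change over the square root of F. Floors of 3 counts cover counting error only, since reads carry no molecular identifiers. The script was tested on simulated data. Alternatives included DESeq2 1.42.0, other scalings and filters, and left-out libraries; leaving out pairs of normal astrocyte libraries was chosen after seeing the data. The summed fit follows an earlier finding that these libraries are nearly identical.

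Members and gene lists were chosen with earlier results of these data known. Named genes were chosen markers, up to 4 called members of each list with the largest change and at least 10 CPM, the 8 largest changes each way with no overlap and at least 50 CPM, the 6 highest levels each way, and related pairs called in opposite directions. Other list members, Xist and Ddx3y were named after their values were seen. Promoters were the first RefSeq window per symbol, searched on both strands for 18 motifs: the CHR forms TTTGAA and also TTTGAAT and then TTTAAA, the NF-Y box CCAAT, the E2F forms TTTGGCGC and also TTTGGCGCC and also TTTCCCGC and also TTCCCGCC and also GGCGCGAAA, the E-boxes CACGTG and also CAGCTG, the Gli form GACCACCCA, the nuclear factor I palindrome, the GC box GGGCGG, the TATA box TATAAA, the REST element and its end, TTCAGCACC, and lastly AAACCGG. Each TTTGAAT holds a TTTGAA, and each TTTGGCGCC holds a TTTGGCGC. The search also covered all called genes and the repair and replication lists. Some genes that these rules name are not reported here.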

Additional observations from a re-analysis of the deposited data

Results flagged for a closer look

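Of 179 named genes, 18 had 1 normal astrocyte library set apart from the other 3 by Dixon's ratio. Chance gives about 1 in 20 for continuous values, but in 7 of these genes the other 3 libraries had no count, so that any count sets the ratio to 1, and the number of genes cannot be read against that rate. Tumor GNPs, counted as 2 samples, were not examined this way. Library 1 stood apart for Cx3cr1, at 47.9 CPM. Library 2 stood apart for Gfap at 41.1 CPM, Grin2b at 5.79 CPM, Cox8b at 2.84 CPM, Mki67 at 0.908 CPM and Tubb3 at 104 CPM. Library 3 stood apart for Nfia at 122 CPM, Bard1 at 0.946 CPM, Dll3 and Mcm10 at 0.0860 CPM each, and Ptbp1 at 0 CPM. Library 4 stood apart for Hbb-bs at 1995 CPM, Hbb-bt at 71.9 CPM, Atp5g2 at 33.6 CPM, Pdgfra at 1.66 CPM, Brca1 at 0.683 CPM, E2f7 at 0.488 CPM and Slc17a6 at 0.0976 CPM.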

How the results depend on the processing

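No call among all genes reversed in the alternatives counted over all genes, which compare calls made in both. The count of genes higher in tumor GNPs was 1030 with these cell types fitted alone, and that of genes lower was 3423 with the 4 tumor GNP libraries kept apart, against 2006 and 1929. Leaving out 1 library gave 1558 to 2204 higher and 1302 to 2060 lower, the lowest of each without tumor GNP library 3, where the lone summed tumor GNP sample is assumed to vary like the other groups. Without normal astrocyte libraries 1 and 2 there were 2185 higher and 2018 lower, and without libraries 3 and 4 there were 2486 and 2177. Upper quartile scaling moved the median log2 fold change of all genes to 0.25, against 0.10, and higher genes made up 56.2% of calls against 51.0%. DESeq2 gave 2126 higher and 2722 lower. Without normal astrocyte libraries 1 and 2, the log2 fold changes of the Y-linked genes Kdm5d, Ddx3y and Eif2s3y were 1.80, 0 and 0, since those libraries alone among the normal astrocytes held their transcripts. Of the values of named genes under the alternatives, 75 missed the threshold after passing it and 29 passed it after missing it. The cause was not tested. No paired analysis was possible because the labels carry no replicate numbers. Depth limits genes at or below the floor of 0.294 to 0.314 CPM.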

Other observations

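Chromosome 13 had lower values than the other chromosomes in tumor GNPs against normal astrocytes, a pattern noticed in the data and chosen for that. Over its 166 genes with a mean of at least 20 CPM the median log2 fold change was -0.72, against -0.33 to 0.16 on the other 19 chromosomes. With a minimum of 5 CPM it was -0.69, and with 50 CPM -0.62. Taken as log2(CPM + 1) minus the mean of normal astrocytes, the median of chromosome 13 was -0.80 to -0.75 in the 4 tumor GNP libraries, against -0.37 to 0.30 on the other chromosomes. In the 4 tumor-derived astrocyte libraries, set against the same normal astrocytes, it was -1.11 to -0.69, against -0.74 to 0.75 on the other chromosomes, so the low values were not particular to tumor GNPs. In normal astrocytes, each library set against the other 3, it was -0.06 to 0.07. In windows of 20 megabases by gene start (mm10), the first window, with 14 genes and so thinly filled, had a median log2 fold change of 0.46, and the others lay between -1.07 and -0.70; the window from 80 to 100 megabases also had few genes, 18. Ptch1, at -2.83, lies in the window from 60 to 80 megabases, whose 26 genes had a median of -1.07. Copy number was not measured, and no cause was tested.

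Pseudogenes and long noncoding RNAs were called higher more often than lower. Of 667 pseudogenes 143 were higher and 23 lower in tumor GNPs, and of 1192 long noncoding RNAs 193 were higher and 101 lower. Protein-coding genes gave 1649 higher and 1804 lower of 12448. Over all genes tested, 13.9% were higher and 13.4% lower. Counts of pseudogenes near-identical to other genes, such as those of ribosomal proteins, are uncertain.

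Tumor GNP library 3 differed from the mean of libraries 1, 2 and 4 by at least 4-fold in 170 of 6182 genes with a mean of at least 20 CPM, on log2(CPM + 1). It was higher for 92, among them Cbln3, a granule neuron gene, at 10.8 CPM against 0 CPM in the 3 others, and Vtn, at 28.9 CPM. It was lower for 78, among them Dnajc6, at 0.208 CPM in library 3 and 52.8 to 68.7 CPM in the others.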
